A study of Mus musculus with 2 samples.

Results

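The genes described here are the matrix metalloproteinases (Mmp), the membrane-bound proteases of the Adam family, the secreted proteases of the Adamts family with their ADAMTS-like (Adamtsl) relatives, the tissue inhibitors of metalloproteinases (Timp) and the serpins (Serpin) on a whole-genome mouse array. They were chosen by gene symbol alone, with 1 matching gene not analysed here. The choice gave 143 genes, represented by 200 probes, of 34737 genes and 55681 probes on the array. Of these genes 74 were counted as proteases (23 Mmp, 32 Adam and 19 Adamts), 64 as inhibitors (4 Timp and 60 Serpin), and the 5 Adamtsl genes, which lack a protease domain, were counted with neither.

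RNA came from the hippocampus of ICR mice, an outbred stock, 8 weeks after an operation. One array was hybridised with RNA of the sham group, which had the control operation, and 1 with RNA of the 5/6Nx group; 5/6Nx is the usual short form for the removal of most of the kidney tissue, a model of chronic kidney disease. The labels used here do not say how many animals each array stands for. With 1 array per group there was no replicate, so no p-value, standard deviation or test of a group difference could be given, and every difference below is between these 2 samples.

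Matrix proteases cut collagens, proteoglycans and other proteins outside the cell, and many Adam proteins cut receptors and growth factors from the cell surface. TIMPs block the metalloproteinases by occupying their active site, while most serpins trap serine proteases such as plasmin, thrombin, plasminogen activators and neutrophil elastase in an irreversible complex. In the hippocampus this system is known for remodelling the matrix around neurons and vessels, for the shedding of membrane proteins at synapses, and for the tissue plasminogen activator axis in plasticity.

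Several serpins are recent copies of one another, and their probes share sequence, so it matters which rows of the array are separate measurements. The probes of Serpina1a and Serpina1c, which both encode alpha-1-antitrypsin, were identical at 50 of 51 overlapping bases, and those of Serpina1c and Serpina1e at 49 of 59. A stretch of 30 bases from these 3 probes is given here, aligned without gaps. Capitals mark the 9 positions where the 3 were then not all alike.
Serpina1a: tgaattgggttccttCcATtAaaCACAggC
Serpina1c: tgaattgggttccttCcATtAaaCACAggC
Serpina1e: tgaattgggttccttTcCAtTaaACACggG
Over this stretch Serpina1a and Serpina1c cannot be told apart by sequence, and Serpina1e differed from both. In all, 10 pairs of probes for different genes of the set were at least 80% identical without gaps over 25 or more overlapping bases. Both probes were measured in 7 of these pairs. Serpinb6a and Serpinb6c shared 55 of 59 bases and Serpinb6c and Serpinb6e 46 of 56. The members of such a pair are reported as uncertain, because RNA of one gene may bind the probe of the other.

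The region before the transcription start was shared in part as well. The promoters of Serpina1a, Serpina1c, Serpina1d and Serpina1e (RefSeq, GRCm38.p6, all on the minus strand) are shown because these 4 genes were lower together. Over the 250 bases before the start, pairs of these 4 genes shared 34.2% to 57.1% of their 20-base stretches. Capitals mark a run of 55 bases that was identical in all 4.
Serpina1a, chr12:103863620-103863699: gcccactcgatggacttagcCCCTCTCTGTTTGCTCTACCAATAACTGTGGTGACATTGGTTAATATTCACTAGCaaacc
Serpina1c, chr12:103904951-103905036: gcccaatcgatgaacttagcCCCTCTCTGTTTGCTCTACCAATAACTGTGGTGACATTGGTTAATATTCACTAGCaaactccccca
Serpina1d, chr12:103773634-103773708: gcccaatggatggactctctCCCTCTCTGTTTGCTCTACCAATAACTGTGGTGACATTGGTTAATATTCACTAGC
Serpina1e, chr12:103956930-103957034: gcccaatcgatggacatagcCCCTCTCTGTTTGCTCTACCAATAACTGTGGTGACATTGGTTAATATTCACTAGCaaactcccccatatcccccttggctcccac

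The neighbouring Serpina3 genes, which are copies of an antichymotrypsin gene, differed in opposite directions, so 4 of their promoters are shown too. Serpina3n and Serpina3c, both higher in 5/6Nx, held a match to a simplified glucocorticoid receptor motif, GNACA followed after any 3 bases by its reverse complement TGTNC (in capitals). The Serpina3f and Serpina3g promoters, of genes that were lower, held a match to TTCNNNGAA, the motif bound by STAT proteins (in capitals).
Serpina3n, plus strand, chr12:104406585-104406687: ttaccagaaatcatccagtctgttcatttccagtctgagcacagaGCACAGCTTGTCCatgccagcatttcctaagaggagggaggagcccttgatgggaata
Serpina3c, minus strand, chr12:104153890-104153992: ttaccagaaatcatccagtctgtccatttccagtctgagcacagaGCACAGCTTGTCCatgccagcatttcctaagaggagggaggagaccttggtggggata
Serpina3f, plus strand, chr12:104214378-104214476: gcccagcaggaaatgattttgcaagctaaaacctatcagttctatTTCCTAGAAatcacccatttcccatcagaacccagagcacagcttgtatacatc
Serpina3g, plus strand, chr12:104236069-104236146: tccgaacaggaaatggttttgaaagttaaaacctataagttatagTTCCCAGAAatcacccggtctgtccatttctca
Both motifs read the same on either strand, and they were chosen after the values of these genes were seen. RefSeq promoters (250 bases before the start to 50 after it) were matched to 101 of the 143 genes. The glucocorticoid receptor motif was present in 0.475% of all 32851 promoters and in 3 of the 101 genes, the third being Serpinf2. The stretches of Serpina3n and Serpina3c are nearly identical, so their matches are copies of 1 site and not separate. The share over all promoters is also not like for like, since the 101 genes had 115 promoters and were counted by gene. TTCNNNGAA was present in 8.3% of all promoters and in 11 of the 101 genes, among them Serpina3i, which was not lower. Serpina3m, which was higher (1.09), was not among the genes with a match to either motif. The Serpina3f stretch shown also holds a near match to the glucocorticoid receptor motif, which fails only at its last base. Those of Serpina3n and Serpina3c hold a near match to TTCNNNGAA, with an A in place of its C. The motifs thus do not separate the higher from the lower genes cleanly. A match is a stretch of letters and does not show that a factor was bound there. A heat shock motif searched on both strands, GAA, TTC and GAA with any 2 bases between each, was present in 0.603% of all promoters and in 0 of the 101 genes.

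Signal was similar on both arrays. No spot was saturated, 72.7% of spots were well above background in sham and 72.5% in 5/6Nx, and the correlation of the 2 arrays across measured genes was 0.983. A level is given below as the log2 intensity of a gene's brightest probe minus the log2 of its array's 75th percentile (intensity 1452 in sham and 1263 in 5/6Nx), so that 0 is the 75th percentile of that array. Levels serve to compare the arrays for one gene, not one gene with another, since probes differ in brightness. A difference is 5/6Nx minus sham on the log2 scale, and 2-fold is a size and not a test. Where a gene had several measured probes their differences varied by a median SD of 0.20 over 7995 genes, and of 0.26 over 27 genes of the set. A few probes were also spotted repeatedly; the 10 spots of the Mmp9 probe had an SD of 0.17 in sham and 0.16 in 5/6Nx. Neither kind of spread includes that between animals.

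The neuronal identity of the tissue was checked with 10 pan-neuronal and 10 astrocyte markers, all of them measured on both arrays, with median differences of -0.19 and -0.04. Of the pan-neuronal markers 2 were at least 2-fold lower (Tubb3, -1.48, and Elavl4, -1.03). Of 10 GABAergic interneuron markers 9 lay below 0 (11570 of 25917 over all measured genes), with a median of -0.60. Markers of tissue next to the hippocampus were unequal between the arrays. Of 16 measured choroid plexus markers 13 were at least 2-fold higher in 5/6Nx, and their summed level (log2 of the sum of the markers' linear levels) went from 4.83 in sham to 7.91 in 5/6Nx. Of 15 measured markers of leptomeningeal fibroblasts, the collagen-rich cells of the brain's covering, 12 were at least 2-fold lower, with a summed level of 5.91 in sham and 4.03 in 5/6Nx. Red cell markers were lower in 6 of 8 (7.81 to 4.31), and neutrophil markers in 5 of 8, with 3 more above background in sham only, while the summed level of that list (6.82 and 6.95) was carried by 1 probe, that of Csf3r (6.72 and 6.93). Heat shock and endoplasmic reticulum chaperones were lower in 11 of 15 (8.57 and 7.46), and 6 of 12 glucocorticoid-regulated genes were higher (8.58 and 9.1). In bulk tissue, fewer cells of a type and less RNA per cell cannot be told apart. The part of these markers in the results below was not tested.

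Signal well above background was found on 1 array or both for 101 of the 143 genes, and on both for 92, which are called measured. The other 42 were not well above background on either array: 12 Mmp genes, 7 Adam, 2 Adamts and 21 Serpin. They included the stromelysin gene Mmp3, the collagenases Mmp8 and Mmp13, the macrophage elastase gene Mmp12, the antithrombin gene Serpinc1, and Serpinb2, whose product inhibits urokinase. Of the genes seen on 1 array, 6 were above background in sham only (5.94% of 101, against 3.09% of all genes seen) and 2 in 5/6Nx only (1.98%, against 2.71%). Adamts5, an aggrecan-cutting protease, counted in none of these groups. Its brightest probe was above background in sham only, while its other measured probe differed by -0.09.

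More genes of the set were lower than higher in 5/6Nx. Of the 92 measured genes 5 (5.43%) were at least 2-fold higher, against a background of 4.89% of all 25917 measured genes, and 16 (17.4%) were at least 2-fold lower, against 3.29%. In either direction 21 were 2-fold apart (22.8%, against 8.18%). The median difference was -0.11, with quartiles of -0.65 and 0.36, beside 0.05 with quartiles of -0.23 and 0.35 over all measured genes. The higher count was thus close to the background, and the lower one above it. Of the 16 lower genes, 4 are the Serpina1 copies described above, which share much of their sequence; without them 12 of 88 were lower. Setting the arrays to their spike-in probes moved all genes by -0.22. Then 2 members were higher (2.17%, against 3.08% of all genes) and 19 lower (20.7%, against 5.45%). Next to the 2-fold line, Serpina3c (1.01) lay just inside and Serpinb3c (0.94) just outside on the higher side, and Adamts2 (-1.01) and Serpinb9 (-0.83) on the lower side.

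**Figure D1:**
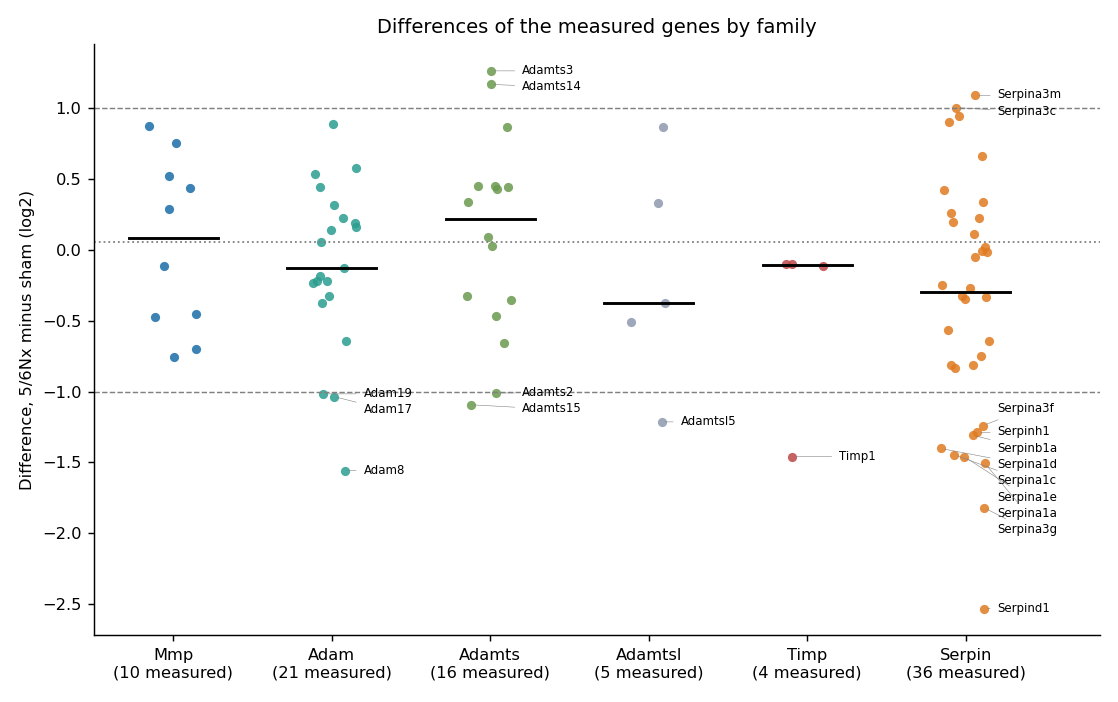
Difference between 5/6Nx and sham (log2) for 91 of the 92 measured genes, by family; each point is a gene, black bars are the medians of all measured genes of a family, the dotted line is the median of all measured genes (0.05) and dashed lines mark 2-fold. The plotted Serpin genes reach from -2.53 for Serpind1 to 1.09 for Serpina3m, and no measured Mmp gene reached 2-fold.

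Proteases and inhibitors differed in their middle values. The 47 measured proteases had a median difference of 0.06 (-0.16 with spike-in scaling), with 25 above 0 and 22 below. The 40 measured inhibitors had one of -0.26, with 13 above 0 and 27 below. Over all 25917 measured genes 14347 lay above 0 and 11570 below, so the proteases were split much as all genes were. Of the proteases 2 (4.26%) were at least 2-fold higher and 5 (10.6%) lower. Of the inhibitors 3 (7.5%) were higher and 10 (25%) lower. Over all measured genes these shares were 4.89% higher and 3.29% lower, so the higher share of the proteases was near the background. The median of the inhibitors thus lay -0.32 from that of the proteases, and -0.15 with quantile normalization or in the authors' table and -0.14 with lowess. Leaving the 4 Serpina1 copies out, a choice made after seeing the data, brought that gap to -0.17 and the inhibitors' median to -0.11. The proteases were counted by family name, so they include genes without protease activity, such as Adam11 (0.54), Adam22 (-0.32) and Adam23 (0.58). The proteases' median without such genes was not computed, while non-inhibitory serpins were left out of the inhibitors in an alternative given below. Genes are not replicates, and with 1 array per group the gap was not tested.

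**Figure D2:**
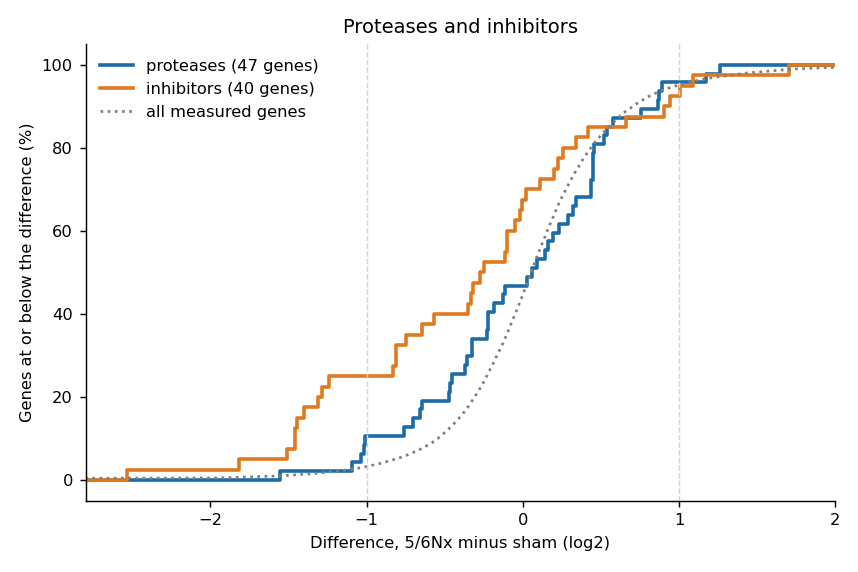
Share of measured genes (%) at or below each difference (log2, 5/6Nx minus sham) for 47 proteases, 40 inhibitors and all 25917 measured genes. The inhibitors' line lies above that of the proteases over most of the range below 0 and reaches 25% at a 2-fold lower level, where the proteases reach 10.6%.

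Among the matrix metalloproteinases none of 10 measured genes was 2-fold apart, and 5 lay on each side of 0. Their median of 0.09 changed sign with the scaling, to -0.05 with quantile normalization and -0.13 with spike-in scaling. Mmp14, a membrane-bound enzyme that activates pro-Mmp2, had a level of -2.81 in sham and -1.94 in 5/6Nx, a difference of 0.87. Mmp2, the gelatinase it activates, went from -3.36 to -2.61, a difference of 0.75. Mmp9, the gelatinase most studied in synaptic plasticity, was dim on both arrays, at -5.05 and -4.53, a difference of 0.52. Both gelatinases and the activator of Mmp2 were therefore higher by less than 2-fold. The other membrane-type enzymes did not share one direction. Mmp16 differed by 0.44, Mmp15 by -0.76 (-1.23 in sham and -1.99 in 5/6Nx), and Mmp17, a membrane-anchored enzyme of neurons, by -0.45 (3.70 and 3.25). The probes of Mmp24 gave 0.29 and -0.57 and so no direction. Mmp11 differed by -0.70. On 1 of its 2 probes Mmp28 was above background in sham only, with a bound of 3.49-fold lower in 5/6Nx. Such a bound sets the brighter value against the faintest signal that counted as above background on the other array. It is not a strict minimum, since some probes brighter than that faintest signal did not count as above background. The other Mmp28 probe was above background on neither array and was brighter in 5/6Nx (-8.5 in sham and -6.2 in 5/6Nx).

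Of 21 measured Adam genes 3 (14.3%, against 3.29% of all genes) were at least 2-fold lower and 0 (against 4.89%) higher. Their median was -0.13 and became 0.03 with normexp background. Adam8, an immune-cell sheddase that neutrophils carry, was at 0.26 in sham and -1.30 in 5/6Nx, a difference of -1.56. Adam19 went from 0.38 to -0.64, a difference of -1.02. Adam17, which cuts tumour necrosis factor from the cell surface, went from -3.17 to -4.20, a difference of -1.04 on one probe and -1.29 on the other; with normexp background the former was -0.58. Adam10, the main alpha-secretase of neurons, differed by only -0.37 (2.28 and 1.91), and Adam9, a related sheddase, by 0.45 (1.52 and 1.97). The sheddases thus lay on both sides of 0. Adam11, Adam22 and Adam23 lack protease activity and act as adhesion proteins and receptors of LGI proteins at the synapse, although the family name counts them with the proteases. Adam11 was at 2.73 and 3.26, and its 2 probes differed by 0.54 and 0.30. The probes of Adam22 ranged from -0.32 to 0.42 and those of Adam23 from -0.21 to 0.64, so neither gene had a direction that all its probes shared. Adam7, Adam18 and Adam2, which are known from the male reproductive tract, were above background in sham only. Their bounds were 1.5-, 1.48- and 1.1-fold lower in 5/6Nx, all close to the detection limit. The bound of Adam2 sets no minimum. Its sham level (-5.93) was below that of a Serpina3i probe (-5.81) that was not above background in 5/6Nx.

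Of 16 measured Adamts genes 10 lay above 0, beside 14347 of 25917 over all measured genes. Of the 16, 2 were beyond 2-fold in each direction (12.5%, against 4.89% of all genes higher and 3.29% lower). Their median was 0.22, against 0.01 with quantile normalization and -0.0029 with spike-in scaling, where 8 lay above 0. The genes beyond 2-fold on the higher side were Adamts3 (-4.22 in sham and -2.95 in 5/6Nx, a difference of 1.26) and Adamts14 (-0.95 and 0.22, a difference of 1.17; its other probe gave 0.31). Adamts2 (-0.72 and -1.74, a difference of -1.01; -0.67 on its other probe) was 2-fold lower; it stood outside the rule for named genes and was named after its value was seen. Adamts2, Adamts3 and Adamts14 form the branch of the family that removes the amino-terminal propeptide of fibrillar procollagens, and here they did not share a direction. Adamts15, a proteoglycan-cutting enzyme, was lower, at -0.83 and -1.92 (-1.09). Adamts1 and Adamts9, which also cut aggrecan and versican, were less than 2-fold apart, the former by 0.45 and the latter by 0.45 on one probe and 0.68 on the other. The 2 measured probes of Adamts4, an aggrecanase, disagreed, at 0.43 and -1.21. Of the 5 Adamtsl genes, Adamtsl5 was lower (-2.44 and -3.65, a difference of -1.21, but -0.47 on its other probe), Adamtsl4 differed by -0.51, and Adamtsl2, a microfibril-associated protein, by 0.87.

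Of the TIMPs 1 was 2-fold apart and 3 were close to 0. Timp1, the inducible inhibitor that glia and fibroblasts make after injury, was at -3.20 in sham and -4.66 in 5/6Nx, a difference of -1.46, which was -0.70 with normexp background and -0.64 with no background subtraction. Timp2 (6.27 and 6.16), Timp3 (4.11 and 4.0) and Timp4 (2.22 and 2.12) differed by -0.11, -0.10 and -0.10, less than the median SD of 0.26 between probes of one gene; with spike-in scaling, which moved all genes, they differed by -0.33, -0.32 and -0.32. Timp1 was lower beside the 12 fibroblast markers; their part in its value was not tested.

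**Figure D3:**
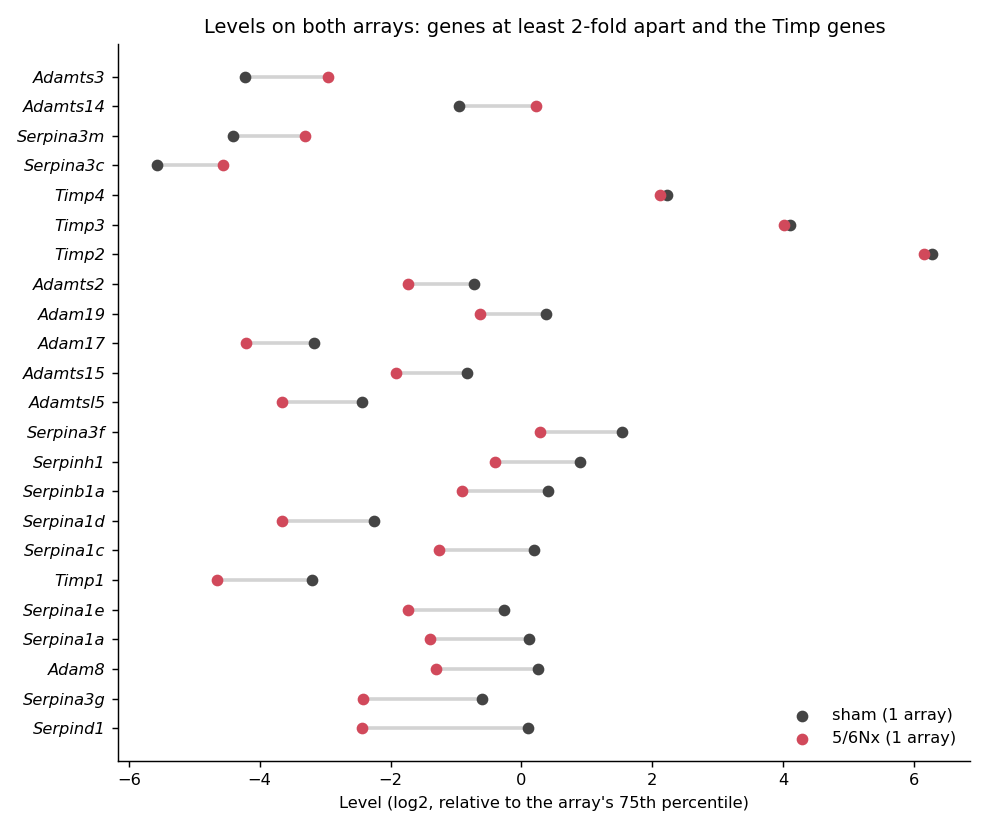
Level of each gene on the sham array (grey) and the 5/6Nx array (red), as log2 relative to the array's 75th percentile, for 20 genes at least 2-fold apart and for the 4 Timp genes. Of the 20 genes 16 have the 5/6Nx point to the left, with the widest gap at Serpind1 (0.10 and -2.43), while the points of Timp2, Timp3 and Timp4 nearly coincide.

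The lowest difference of the set belonged to a serpin of the coagulation system. Serpind1 encodes heparin cofactor II, a thrombin inhibitor that is mostly a liver product; its level was 0.10 in sham and -2.43 in 5/6Nx, 5.79-fold lower, on 1 probe at chr16:17343544-17343603 (mm9, plus strand). This value rests on a single probe. Serpine2, which encodes protease nexin-1, a thrombin inhibitor of glia, was almost equal (0.88 and 0.83). Serpini1, which encodes neuroserpin, the neuronal inhibitor of tissue plasminogen activator, was bright on both arrays, at 4.92 and 4.11, with differences of -0.81 and -0.70 on its probes. Both probes of Serpini1 were thus lower by less than 2-fold, beside the lower GABAergic interneuron markers, whose part was not tested. Serpinf2, the plasmin inhibitor alpha-2-antiplasmin, differed by 0.42.

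Around these serpins, 28 genes of the plasminogen and coagulation proteases and their receptors were listed. Of 25 measured, 4 (16%, against 4.89% of all genes) were at least 2-fold higher and 4 (16%, against 3.29%) lower, with a median of -0.09. Tissue plasminogen activator (Plat) differed by -0.09 and urokinase (Plau) by -0.49. The urokinase receptor Plaur was higher (-3.76 and -2.18, a difference of 1.57), as were the coagulation factors F5 (3.45) and F7 (1.52) and the serine protease Htra4 (1.55). Thrombomodulin (Thbd), the endothelial thrombin receptor, was lower (0.26 and -2.10, a difference of -2.36), as were S100a10 (-1.13), part of a plasminogen receptor, and the kallikreins Klk6 (-1.57) and Klk8 (1.51 and 0.40, a difference of -1.10), the latter a protease of hippocampal neurons also called neuropsin. Both plasminogen activators were thus less than 2-fold apart, while the receptors Plaur and Thbd were further apart.

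The Serpina genes on chromosome 12 were the densest block of large differences. The 17 measured ones lie between positions 104854887 and 105651977 (mm9). Of them 6 (35.3%, against 3.29% of all genes) were at least 2-fold lower and 2 (11.8%, against 4.89%) higher. The 4 alpha-1-antitrypsin copies Serpina1d, Serpina1a, Serpina1c and Serpina1e stand next to each other and were 2-fold lower. Serpina1a went from 0.12 to -1.39, a difference of -1.51, and -1.0 on its other probe. Serpina1c went from 0.19 to -1.25 (-1.45). Serpina1e went from -0.27 to -1.73 (-1.46, and -0.60 on its other probe). Serpina1d went from -2.26 to -3.66 (-1.40, and -1.39 on its other probe). Serpina1f, which carries the same name but stands at the edge of the group, differed by -0.25.

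Directions were mixed among the Serpina3 genes, with a median of -0.11. Of 8 measured, 2 (25%, against 4.89% of all genes) were 2-fold higher and 2 (25%, against 3.29%) lower. Serpina3g (-0.60 and -2.42, a difference of -1.82) and Serpina3f (1.53 and 0.29, a difference of -1.24, and -1.35 on its other probe) were lower, and Serpina3h differed by -0.81. The brighter Serpina3f probe (mm9, start 105492556) lies next to the Serpina3h probe (start 105491733) and apart from the other Serpina3f probe (start 105458989). Serpina3m (-4.40 and -3.31, a difference of 1.09) and Serpina3c (-5.57 and -4.56, a difference of 1.01) were higher but dim. Serpina3n, a protease inhibitor that astrocytes are known to make when they react, was at 1.82 and 2.73, a difference of 0.91. Beside it, of 10 astrocyte markers only Gfap (1.12) was 2-fold higher, the list median was -0.04 and Aqp4 differed by -0.83, while 6 of 12 glucocorticoid-regulated genes were at least 2-fold higher. The part of either in the Serpina3n value was not tested. Serpina3n and Serpina3f, each far above background on both arrays, thus differed in opposite directions. Serpina6, the corticosteroid carrier of plasma, was near the detection limit (-6.18 and -5.92).

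**Figure D4:**
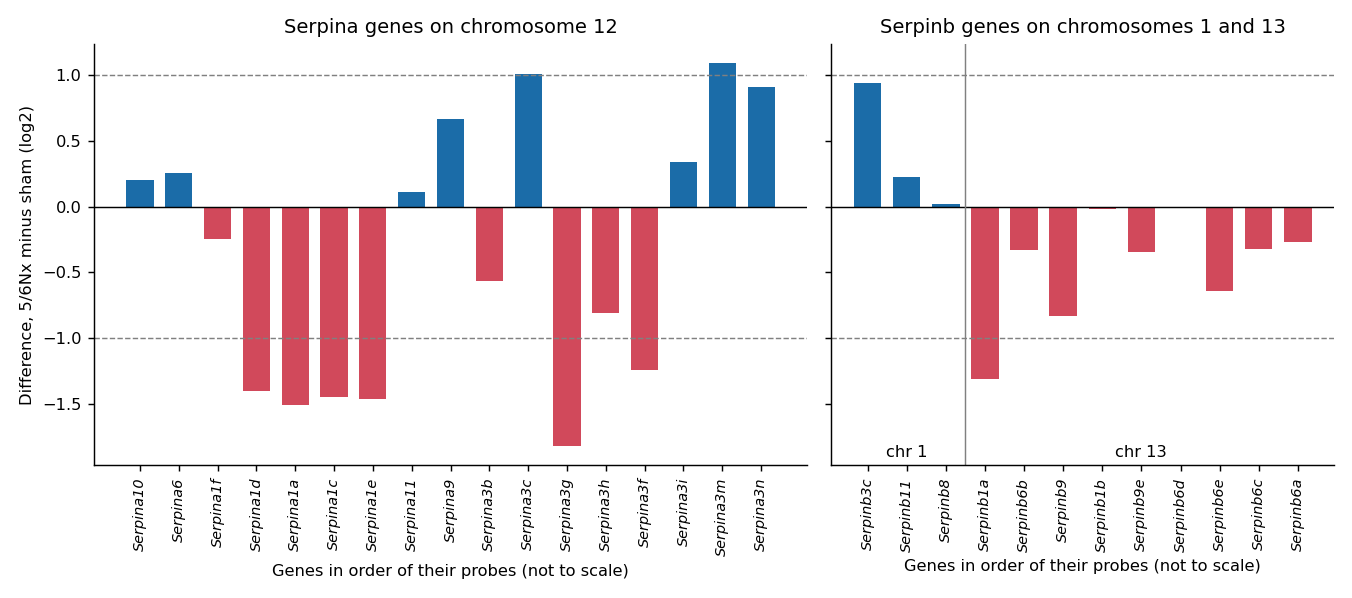
Difference between 5/6Nx and sham (log2) for the 17 measured Serpina genes on chromosome 12 (left) and the 12 measured Serpinb genes on chromosomes 1 and 13 (right), in the order of their probes along each chromosome; bars start at 0 and dashed lines mark 2-fold. The run from Serpina1d to Serpina1e lies between -1.40 and -1.51, and bars of both signs follow from Serpina9 onward. The 9 measured Serpinb genes on chromosome 13 are all below 0. Serpinb9b, on the same chromosome and above background in 5/6Nx only, is not plotted.

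The Serpinb genes, which encode inhibitors that stay inside the cell, differed less. Of 12 measured, 1 (8.33%, against 3.29% of all genes) was at least 2-fold lower and 0 (against 4.89%) were higher, with a median of -0.30. The 9 measured ones on chromosome 13 were all below 0, from -1.31 to -0.01. The 3 on chromosome 1 were all above it, from 0.02 to 0.94. Over all 25917 measured genes 11570 lay below 0 and 14347 above. Of the 9, Serpinb6d (-0.0065) and Serpinb1b (-0.0157) were close to 0. With normexp background 6 of the 9 were below 0, and 1 of the 3 lay below 0 with that background and with median, lowess or spike-in scaling. The 5 measured Serpinb6 copies, some of which share probe sequence, were part of the first group, with a median of -0.32. Serpinb1a, an inhibitor of neutrophil elastase and cathepsin G, was at 0.40 and -0.91, a difference of -1.31. Beside it 5 of 8 measured neutrophil markers were at least 2-fold lower, from Camp (-1.28) to S100a9 (-4.39), while Mpo (-0.50), Csf3r (0.20) and Elane (0.17), the elastase gene itself, were not; their part in the values of Serpinb1a and Adam8 was not tested. Serpinb9, the inhibitor of granzyme B, differed by -0.83 (-1.76 and -2.59). Serpinb1c, also on chromosome 13, was above background in sham only, with a bound of 2.08-fold lower in 5/6Nx. Serpinb9b, on chromosome 13, and Serpinb3b, on chromosome 1, were above background in 5/6Nx only, with bounds of 2.29- and 1.67-fold higher. The direction of Serpinb9b was thus opposite to that of the 9 measured genes on its chromosome.

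A few serpins do not inhibit proteases. Serpinh1, also called HSP47, is the collagen chaperone of the endoplasmic reticulum and is induced with heat shock proteins; it was at 0.89 in sham and -0.40 in 5/6Nx, a difference of -1.29. Serpinf1, which encodes the neurotrophic factor PEDF, differed by -0.75 and -0.79 on its probes (1.54 and 0.79 on the brighter one). Both were lower beside the collagen genes Col1a1 (-1.58), Col1a2 (-1.45) and Col3a1 (-2.52), which are among the fibroblast markers, and Serpinh1 also beside the 11 lower chaperones. These relations were not tested. Leaving the non-inhibitory serpins out of the inhibitors gave a median of -0.25 over 37 genes. Of these 3 (8.11%, against 4.89% of all genes) were higher and 9 (24.3%, against 3.29%) lower.

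Other matrix proteases and their regulators were listed for comparison. Of 32 measured genes 7 (21.9%, against 4.89% of all genes) were at least 2-fold higher and 1 (3.12%, against 3.29%) lower, with a median of 0.04. The higher ones included A2m (2.02), which encodes the broad protease inhibitor alpha-2-macroglobulin, Papln (2.07), an Adamts-like protein, and Wfdc2 (2.84). Bmp1, the protease that removes the carboxy-terminal propeptide of procollagens, was at 2.72 and 3.74, a difference of 1.02, although another of its probes gave 0.32. Its enhancers differed in opposite directions, Pcolce2 by 1.35 (-0.94 and 0.41) and Pcolce by -1.0 (2.25 and 1.25). Tll1, a related procollagen protease, differed by -0.11 and, on its other probe, -1.0. Reck, a membrane inhibitor of several of these enzymes, differed by 0.20. Of 20 measured cathepsins and cystatins none was 2-fold apart, with a median of 0.05. Ctse, the cathepsin E gene, was above background in 5/6Nx only.

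The substrates lay on both sides of 0. Of 40 measured genes for the hippocampal matrix and basement membranes 3 (7.5%, against 4.89% of all genes) were at least 2-fold higher and 3 (7.5%, against 3.29%) lower, with a median of 0.13. The lecticans and their partners in the matrix around neurons lay within 2-fold for brevican (Bcan, -0.17), aggrecan (Acan, 0.90) and tenascin-R (Tnr, 0.58), while the link protein Hapln1 was lower (-1.30) and Hapln2, its counterpart at the nodes of myelinated axons, higher (1.35). Among basement membrane genes Nid2 (1.39) and Col4a1 (1.05) were higher, and Lama1 (-1.06) was lower.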

How the data were processed

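Hippocampal RNA was hybridised in 1 colour (Cy3) to Agilent whole-genome arrays, 1 for sham and 1 for 5/6Nx, with groups taken from the labels. Per the file headers, the deposited intensities are processed signals of Feature Extraction 10.7.1.1, background-subtracted and not normalized between arrays (the submitters' processing notes name 9.5.1.1). A series table of the authors' normalized intensity, by a method not given in the sources used here, served as an alternative. The members, lists and motifs were chosen with earlier results of these data known.

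Control spots and outlier spots (105 in sham, 97 in 5/6Nx) were left out, spots of a probe averaged, and log2 values set against each array's 75th percentile. A gene took its probe of highest mean signal among those detected (well above background) on either array, and was measured where that probe was above background on both. The number of arrays, 1 per group, limits the precision, as does the spread between probes, so fold sizes and medians were given and nothing was tested. A bound compares the brighter value with the lowest level well above background on the other array. It is nominal, since some brighter probes there were not well above background. Named genes were those at least 2-fold apart (at most 15 a side), the 3 furthest from 0 in each family, the Timp genes, up to 5 bounds a side, and a list of genes known in brain. Values of some genes that enter the counts and medians are not reported here. Probe positions are mm9, per the file headers; whether a probe lies in an exon or a UTR was not analysed here. Promoters came from RefSeq (GRCm38.p6). The gene values and 2-fold counts were tested on simulated data, with known differences added to probes above background on both arrays. Scaling, background, bounds and motif searches were not tested in this way. Python 3.11.15, numpy 2.4.6, pandas 2.3.3, statsmodels 0.14.6 (lowess), matplotlib 3.10.9, and R 4.3.3 with limma 3.58.1 (normexp, offset 50) were used.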

Additional observations from a re-analysis of the deposited data

How the results depend on the processing

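The median of the inhibitors stayed below that of the proteases under every scaling, background and filter tried. The gap ran from -0.61 to -0.12, against -0.32 in the main setting. A constant scaling factor cancels in this gap, so setting the arrays to their medians or spike-in probes could not change it. The gap was smaller with quantile (-0.15) and lowess (-0.14) scaling and in the authors' table (-0.15). The widest gap, -0.61, came with only the 29 members above the median signal. The 5 members at least 2-fold higher became 3 with quantile normalization, with each array set to its median, with a lowess trend removed and in the authors' normalized table. These 3 were 3.26%, against 3.48% to 3.89% of all genes. With spike-in scaling (2.17%, against 3.08%), normexp background (2.2%, against 2.64%) or no background subtraction (2.17%, against 2.45%) 2 were higher. With no filter on dim probes 10 were (6.99%, against 7.46%), and above the median signal 1 was (3.45%, against 2.46%). The 16 members at least 2-fold lower (17.4%, against 3.29% of all genes) became 9 with normexp (9.89%, against 1.92%) or no background subtraction (9.78%, against 1.81%). Above the median signal 7 of 29 were lower (24.1%, against 2.35%). With either array above background 20 of 101 were (19.8%, against 4.65%), and with no filter 22 of 143 (15.4%, against 4.8%). At 1.5-fold 13 were higher (14.1%, against 13.7% of all genes) and 25 lower (27.2%, against 8.92%), and at 3-fold 1 and 2 (1.09% and 2.17%, against 1.49% and 0.945%). Setting the arrays to their spike-in probes moved the median of all genes to -0.17, that of the members to -0.33, of the proteases to -0.16 and of the inhibitors to -0.48; the higher share of members beyond 2-fold was then 9.52% in place of 23.8%, and 15.8% with quantile, median or lowess scaling or the authors' table. Over all genes that share was 59.8% in the main setting, 36.1% with spike-in, 42.3% with median, 49.2% with quantile and 47.9% with lowess scaling, and 49.4% in the authors' table. With no filter the median of the members was 0.11 and of the inhibitors -0.0027, and above the median signal that of the proteases was 0.29. The cause was not tested, beyond the thresholds and filters that set these counts themselves. Of 20 members beyond 2-fold taken by the naming rule, all 228 values under 12 alternatives kept their direction, and 197 were still 2-fold; 10 members kept 2-fold wherever they were measured (among them Adam8, Serpina1a, Serpina1c, Serpina1e, Serpina3f, Serpina3g, Serpinb1a, Serpind1 and Serpinh1). Serpina3c and Serpina3m did so in 4 of 11. Adam17, Adam19, Adamts3, Adamts15, Adamtsl5, Serpina1d and Timp1 were under 2-fold with normexp or no background subtraction, and Adamts14 (0.95) with spike-in scaling. Part of the 228 values was fixed in advance. A change of filter left the value of a gene's probe as it was, as did the mean over probes where 1 probe was measured. Keeping outlier spots hardly moved any of these genes. They were also chosen for being 2-fold apart on these same 2 arrays.

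No paired analysis was possible because there is only 1 array a group, which also left no replicate to drop. An alternative limited to proteases whose protein holds the zinc-binding motif was not run, since protein sequences were not used here.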

Other observations

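In 9 of the 27 members with several measured probes, the probes did not all share a direction. The widest was Adamts4, at 0.43 and -1.21, followed by Adamts8 (-0.47 and 0.62), Adamts17 (-0.35 and 0.60), Adamtsl1 (-0.37 and 0.54), Mmp24 (0.29 and -0.57), Adam23 (-0.21 to 0.64), Adamts16 (-0.66 and 0.19), Adam22 (-0.32 to 0.42) and Serpina11 (0.11 and -0.32). Of the 21 members at least 2-fold apart 8 had several measured probes, and 4 of these had a probe under 2-fold.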
